A study of Mus musculus with 4 samples.

Results

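The genes described here encode regulators of the life of immune messenger RNAs. The ZFP36 proteins (Zfp36, Zfp36l1, Zfp36l2), the Regnases (Zc3h12a, Zc3h12c, Zc3h12d) and the Roquins (Rc3h1, Rc3h2) shorten it, and Arid5a opposes Regnase-1. All 9 genes were chosen by name from what is known of their proteins, not by their values, though with earlier results of these data known. Each was present among the 50600 genes counted. The data are RNA-seq fragment counts from 4 libraries of mouse T-helper 17 (Th17) cells of the strain C57BL/6NJ, labelled as biological replicates 1 to 4 of a single group. No treatment, second genotype or control sample is part of the series, so levels were compared between genes and between libraries only. The labels give no age and no collected sex, and they record separate cell samples with 1 shared donor identifier. The headers of the count tables carry a 2 hour tag, whose meaning the labels do not give. A total of 36298276, 40652146, 26953724 and 25847970 fragments were assigned to genes in replicates 1 to 4.

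T cell markers were high, and the Th17 markers given here were low. All 5 T cell markers (Cd3e, Cd3d, Cd3g, Trac, Cd4) reached a mean of 1 TPM (transcript abundance corrected for gene length and library total), with a sum of 4759 to 5101 TPM per library. Among Th17 markers, the cytokine genes Il17a and Il17f were at means of 5.65 and 12.4 TPM, and the receptor genes Ccr6 and Il23r at 0.207 and 0.132 TPM. Myeloid markers summed to at most 1.42 TPM with 0 of 5 at 1 TPM, B cell markers to at most 1.86 TPM with 1 of 4 and Ms4a1 at 0, and natural killer cell markers to 9.50 to 11.3 TPM with 1 of 3 and Ncr1 and Klrb1c at 0. Sex-linked RNA divided the libraries against the shared donor identifier: Xist was at 0.791 and 0.602 TPM in replicates 1 and 2 and at 142 and 76.5 TPM in replicates 3 and 4, while Y-linked Ddx3y was at 305 and 213 TPM in the former and at 0.914 and 1.39 TPM in the latter. The labels do not settle from which animals the libraries came. The p-values measure only the spread between these samples. Within replicates 1 and 2, and within replicates 3 and 4, that spread may be technical. Contrasts between the genes described below were also computed within each of these pairs. All 8 kept their direction, and 1 of them, Zc3h12a minus Arid5a, differed by more than 1.5 times between the pairs. In bulk RNA, a change in the number of cells making a transcript and a change in the amount per cell cannot be told apart.

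ZFP36 proteins grip AU-rich elements in the 3′ untranslated region (3′ UTR) of unstable messages through a pair of CCCH zinc fingers and recruit the CCR4-NOT deadenylase, which removes the poly(A) tail. Regnases are endoribonucleases and Roquins are RNA-binding proteins, both directed to stem-loops in 3′ UTRs of cytokine, receptor and transcription factor messages. In T cells these factors hold back activation, and MALT1 cleaves Regnase-1 and Roquins after antigen receptor signalling, while Arid5a binds some of the same messages and protects them.

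As a group these genes were well expressed. A mean of 1 TPM or more was reached by 8 of 9, against 45.2% of all 21764 protein coding genes, and only Zc3h12c stayed below. The median over all protein coding genes was 0.279 TPM, and 24.9 TPM over those that reached 1 TPM. Zfp36 and Zfp36l1 led, at ranks 82 and 97 of all protein coding genes by mean TPM. Arid5a, Zfp36l2 and Zc3h12a formed a middle group at ranks 480, 548 and 560. Zc3h12d (rank 2308), Rc3h1 (2376) and Rc3h2 (5475) were lower.

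**Figure D1:**
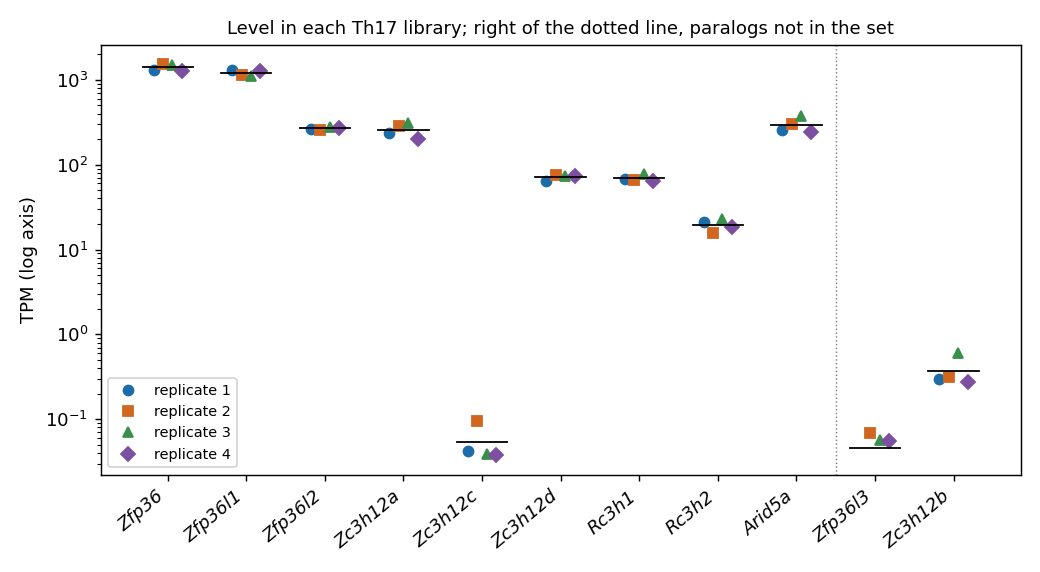
TPM (log axis) of the 9 decay regulators and 2 further paralogs; points are the 4 libraries and bars the mean. Zfp36 and Zfp36l1 lie at 1117 TPM or more in every library and Zc3h12c, Zfp36l3 and Zc3h12b below 1 TPM; Zfp36l3 had 0 counts in replicate 1, which the log axis cannot show.

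Zfp36, which encodes tristetraprolin, the prototype AU-rich element binding protein, was the most abundant. It lies on mm10 chromosome 7 from 28376784 to 28380253 on the minus strand. Its level was 1289, 1528, 1497 and 1280 TPM in replicates 1 to 4. Replicates 2 and 3 were high and replicates 1 and 4 low. Zfp36l1 (chromosome 12, 80107754 to 80113013, minus strand), a paralog that binds the same elements, was at 1310, 1133, 1117 and 1257 TPM. It was high in replicates 1 and 4, where Zfp36 was low. Zfp36 was the higher of the pair in 3 of 4 libraries, and the ranges overlapped. The difference Zfp36 minus Zfp36l1 was 0.21 ± 0.25 (SD, here and below) on the log2(TPM + 1) scale (exact two-sided sign-flip permutation test, p = 0.25, adjusted p = 0.25 over 8 contrasts; n = 4), which is within the spread between replicates. In replicates 1 to 4 this difference was -0.02, 0.43, 0.42 and 0.03. The means of replicates 1 and 2 (0.20) and of replicates 3 and 4 (0.22) were alike, but each joins unlike values.

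Zfp36l2 (chromosome 17, 84183931 to 84187947, minus strand), the paralog known for its part in thymocyte development, was at 262, 256, 281 and 269 TPM, with no library set apart. It was below both paralogs in every library: Zfp36 exceeded it by 2.38 ± 0.15 and Zfp36l1 by 2.17 ± 0.14 on the log2(TPM + 1) scale. Each of these had p = 0.125 in the exact permutation test (adjusted p = 0.143), the smallest p that 4 libraries allow, so that no contrast here can pass 0.05. Zfp36 made up 48.7% ± 3.89, Zfp36l1 42.0% ± 3.82 and Zfp36l2 9.31% ± 0.429 of the summed TPM of the family (SD, n = 4). The sum itself was 2861, 2916, 2895 and 2806 TPM, a coefficient of variation of 1.68%. On library sizes normalized by the trimmed mean of M values (TMM) the family sum had a coefficient of variation of 5.25%, so the narrow spread depends on the scale. The fourth paralog, the rodent gene Zfp36l3, had 4 fragments in all libraries together.

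The stretch that encodes the tandem zinc finger sets the ZFP36 proteins apart as a family. It also bears on how well short reads can tell the paralogs apart. It is shown from the first zinc-binding cysteine of finger 1 to the last histidine of finger 2, 174 bases 5′ to 3′ on the coding strand, with the codons of the zinc-binding cysteines and histidines in capitals.
Zfp36: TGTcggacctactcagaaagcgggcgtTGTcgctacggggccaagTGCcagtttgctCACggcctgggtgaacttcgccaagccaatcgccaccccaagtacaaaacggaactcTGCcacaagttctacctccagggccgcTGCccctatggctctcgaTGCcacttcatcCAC
Zfp36l1: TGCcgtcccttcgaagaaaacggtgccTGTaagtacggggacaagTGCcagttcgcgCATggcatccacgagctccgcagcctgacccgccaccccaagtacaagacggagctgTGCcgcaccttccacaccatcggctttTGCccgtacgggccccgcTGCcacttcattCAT
Zfp36l2: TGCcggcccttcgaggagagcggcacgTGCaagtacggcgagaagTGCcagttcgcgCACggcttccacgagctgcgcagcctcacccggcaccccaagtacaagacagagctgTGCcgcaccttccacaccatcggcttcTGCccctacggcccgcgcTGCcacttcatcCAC
The stretches span codons 101 to 158 of Zfp36 (chr7:28378044-28378217), 120 to 177 of Zfp36l1 (chr12:80110075-80110248) and 161 to 218 of Zfp36l2 (chr17:84186554-84186727), all in coding exons on the minus strand of mm10. Zfp36l1 and Zfp36l2 were identical at 87.4% of these bases, with a longest shared run of 32 bases. Zfp36 was identical at 67.8% to Zfp36l1 and at 69.0% to Zfp36l2, with longest shared runs of 17 and 15 bases. Over whole annotated transcripts, 3.32% of the 31-base words of Zfp36 and 0.0571% of those of Zfp36l2 also occur in another gene. For Zfp36l1 the share was 6.79%, mostly with the pseudogene Zfp36l1-ps, and fragments that lie wholly in such words may not have been counted. None of the 9 genes shares exon bases on its own strand with a neighbour.

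Among the Regnases, Zc3h12a prevailed and Zc3h12c was almost silent. Zc3h12a (chromosome 4, 125118423 to 125127840, minus strand) encodes Regnase-1, the member whose loss in T cells is best known to release activation. Its level was 236, 289, 310 and 203 TPM, high in replicates 2 and 3 and low in replicates 1 and 4. Zc3h12d (chromosome 10, 7832470 to 7870396, plus strand), which encodes Regnase-4, was at 64.1, 75.0, 73.3 and 73.9 TPM. Replicate 1 was the low one. The ranges of the 2 genes did not overlap, and Zc3h12a was the higher in 4 of 4 libraries, by 1.83 ± 0.27 on the log2(TPM + 1) scale (exact permutation test, p = 0.125, adjusted p = 0.143).

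Zc3h12c (chromosome 9, 52111344 to 52168572, minus strand), which encodes Regnase-3, a member described mainly in myeloid cells, was covered by 3, 8, 2 and 2 fragments. That is 0.0534 ± 0.0282 TPM, and 3 of the 4 libraries held no more than the 3 counts that a count of 0 allows. Zc3h12a exceeded it by 7.93 ± 0.26 and Zc3h12d exceeded it as well (Zc3h12c minus Zc3h12d, -6.10 ± 0.10), both in 4 of 4 libraries and as log2(TPM + 1) (exact permutation test, p = 0.125, adjusted p = 0.143). The pseudocount compresses both differences. The remaining paralog, Zc3h12b, had 110 fragments in all (0.373 ± 0.157 TPM). Of the summed TPM of the 3 Regnases described here, Zc3h12a made up 78.0% ± 3.30 and Zc3h12d 21.9% ± 3.30.

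The Roquins were the least abundant family. Rc3h1 (chromosome 1, 160906418 to 160974978, plus strand), the Roquin-1 gene in which the autoimmune sanroque mutation lies, was at 68.2, 66.3, 78.0 and 64.7 TPM. Rc3h2 (chromosome 2, 37370069 to 37422903, minus strand), which encodes the partly redundant Roquin-2, was at 21.3, 15.6, 23.1 and 18.4 TPM. The ranges did not overlap, and replicate 3 was the highest library for both genes. Rc3h1 was the higher in 4 of 4 libraries by 1.78 ± 0.17 on the log2(TPM + 1) scale (exact permutation test, p = 0.125, adjusted p = 0.143) and made up 78.1% ± 2.06 of the pair.

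Arid5a (chromosome 1, 36307733 to 36324029, plus strand), the stabilizing counterpart, was about as abundant as Zc3h12a by the merged length of all annotated exons. With coding transcript lengths, described below, Arid5a was at 500 TPM and Zc3h12a at 203 TPM. By merged length Arid5a was at 255, 303, 373 and 245 TPM, again high in replicates 2 and 3. Zc3h12a minus Arid5a was -0.18 ± 0.10 on the log2(TPM + 1) scale, with Arid5a higher in 4 of 4 libraries (exact permutation test, p = 0.125, adjusted p = 0.143). The ranges of the 2 genes overlapped. The difference was -0.09 in replicates 1 and 2 alone and -0.27 in replicates 3 and 4 alone. With 200 bases taken off every length it was -0.10 (exact permutation test, p = 0.25), and Zc3h12a was then above Arid5a in replicate 2 (276 against 274 TPM).

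In the order of mean TPM, neighbours with overlapping ranges were Zfp36 and Zfp36l1, Arid5a and Zfp36l2, Zfp36l2 and Zc3h12a, and Zc3h12d and Rc3h1. Gaps without overlap lay between Zfp36l1 and Arid5a (4.10-fold), Zc3h12a and Zc3h12d (3.62-fold), Rc3h1 and Rc3h2 (3.54-fold), and Rc3h2 and Zc3h12c.

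These levels depend on the length assigned to each gene. The deposited tables give the merged length of all annotated exons, which is 12540 bases for Arid5a and 19624 for Rc3h2 but 5504 and 8948 bases in their longest coding transcripts. With coding transcript lengths for every gene, Arid5a was at 500 TPM, Rc3h2 at 32.1, Zfp36 at 1299 and Zfp36l1 at 900 TPM. The length of Zfp36l1 is 2990 bases in both models, so its lower value reflects only the rescaling of all genes to the same total. The ratio of Zfp36 to Zfp36l1 went from 1.17 ± 0.199 (0.984 to 1.35) to 1.46 ± 0.247 (1.22 to 1.68), above 1 in 4 of 4 libraries. Rc3h1 over Rc3h2 went from 3.59 ± 0.464 to 1.68 ± 0.217, and Zc3h12a over Arid5a from 0.885 ± 0.0643 to 0.406 ± 0.0295. No contrast changed direction. Fragments from all merged exons stayed in the counts, and only the lengths by which they were divided changed. The size of the excess of Arid5a over Zc3h12a and of Rc3h1 over Rc3h2 rests on which RNAs the cells held. Gene counts do not show this, nor whether a fragment came from spliced RNA.

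**Figure D2:**
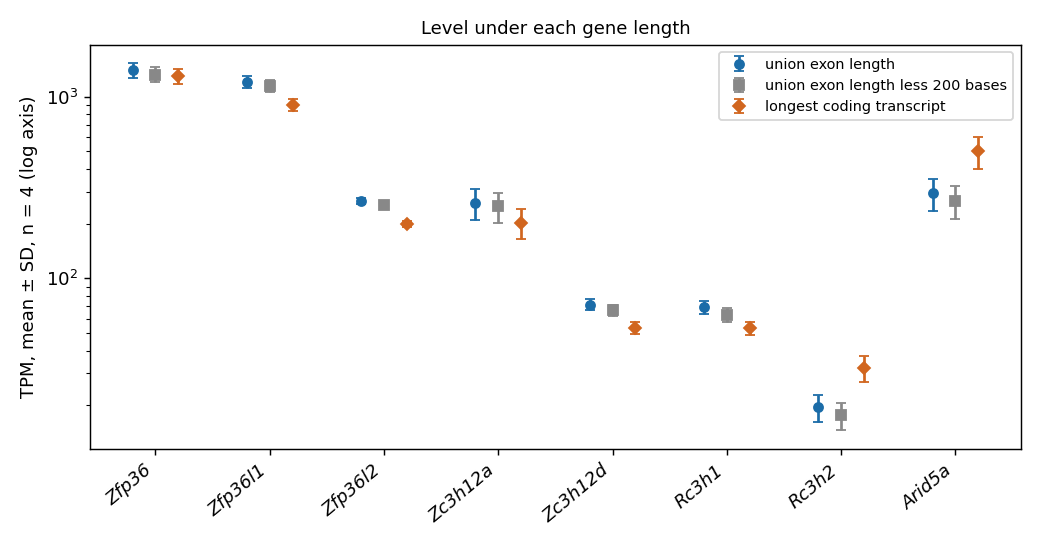
Mean TPM ± SD of the members above 1 TPM (log axis, n = 4) from merged exon length, from that length less 200 bases, and from the longest coding transcript. With transcript lengths Arid5a and Rc3h2 lie higher, at 500 and 32.1 TPM, and Zfp36l1, whose own length is the same, lies at 900 TPM through the rescaling of all genes.

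None of these genes was called as varying between the 4 libraries beyond genes of like abundance. In an edgeR fit with 1 mean per gene, 94 of 11567 tested genes (0.813%) exceeded the dispersion trend at an adjusted p under 0.05, and 0 of the 8 members tested did. At an unadjusted p under 0.05 the counts were 692 of the 11567 genes and 0 of the 8 members. With so few genes called, 0 is the most likely count for any 8 genes and does not set the members apart. With DESeq2 size factors no member was called. The lowest p of a member was 0.252, for Zc3h12a (edgeR deviance, Benjamini-Hochberg adjusted p = 1.00). Leaving out any of the 4 replicates lowered the number of genes called to between 35 and 60, and a common dispersion raised it to 256, with 0 members called in each case. Each tested member had at least 2273 fragments in every library, so counting error was small beside the common coefficient of biological variation of 15.1%. A p above the threshold does not show that the levels were equal.

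Between the lowest and the highest library, TMM-normalized CPM (counts scaled to the library total) differed by 0.08 on the log2 scale for Rc3h1 and 0.13 for Zfp36l2, the steadiest members. The range was 0.27 for Zc3h12d, 0.29 for Zfp36, 0.36 for Zfp36l1 and 0.41 for Rc3h2. Arid5a (0.43) and Zc3h12a (0.49) were the widest. The median over the 8 was 0.32 against 0.40 over all tested genes, which include many of lower abundance, so these medians do not compare like with like. Against the trend at its own abundance, the gene's biological variation was lower for 5 of the 8 members. The same held for 68.9% of all tested genes.

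**Figure D3:**
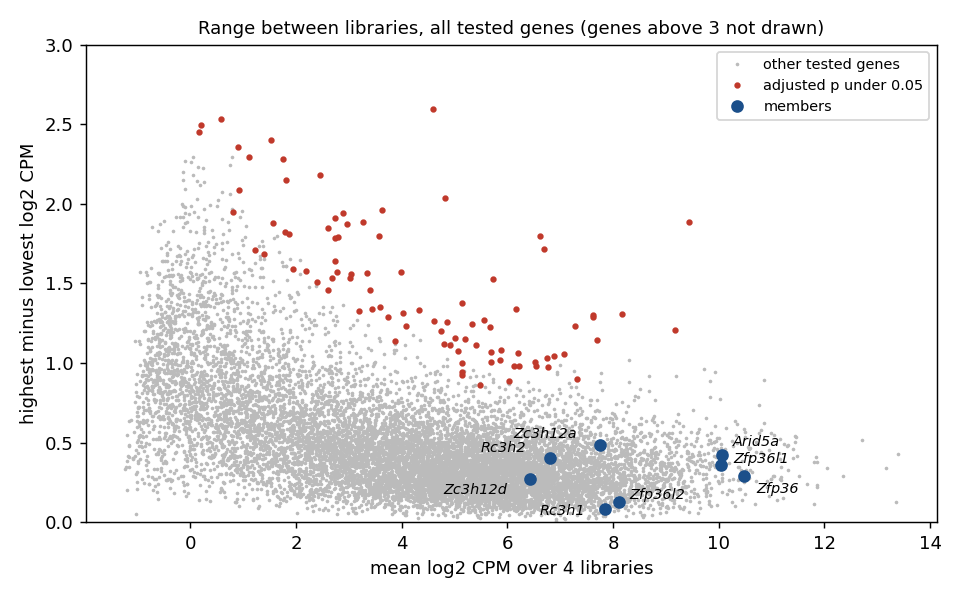
Range over the 4 libraries of log2 CPM on TMM library sizes against the mean log2 CPM, for all tested genes (grey, or red where called as varying) and the 8 tested members (named blue points); 4 genes above the axis limit are not drawn. The members lie between 0.08 and 0.49, within the bulk of genes of like abundance.

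The small differences between libraries did not run in 1 order over the members. On TMM library sizes Zfp36 was at 1313, 1604, 1399 and 1364 CPM in replicates 1 to 4, with replicate 2 alone above the mean. Zc3h12a was at 200, 252, 241 and 180 CPM, and Arid5a at 938, 1150, 1260 and 945 CPM. These 3 genes and Rc3h1, whose range was narrow, had replicates 2 and 3 as their highest pair, as had 20.3% of all tested genes. Zfp36l1 (1150, 1024, 900 and 1155 CPM) was highest in replicates 1 and 4, as were 20.7% of all tested genes. Zfp36l2 and Zc3h12d were highest in replicates 2 and 4, and Rc3h2 in replicates 1 and 3. Zc3h12a and Arid5a had the same order of libraries on TPM (replicates 3, 2, 1 and 4) but not on TMM or DESeq2 library sizes.

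The reported targets were mixed as well. Of the 30 genes on the target lists 20 were tested. The share of all tested genes with the same highest pair is given in brackets. Of the 20, 9 were highest in replicates 1 and 4 (20.7%), 4 in replicates 2 and 4 (20.2%) and 3 in replicates 1 and 3 (20.9%). A further 2 were highest in replicates 1 and 2 (9.71%), 1 in replicates 3 and 4 (8.21%), and 1, Irf4, in replicates 2 and 3 (20.3%). The 9 include Tnf, the classical target of tristetraprolin, at 413, 309, 278 and 370 CPM, Il2 at 7.35, 4.45, 4.37 and 15.3 CPM, and Il2ra at 161, 99.2, 101 and 207 CPM. This tally was made after the values were seen, and no test of it was made.

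**Figure D4:**
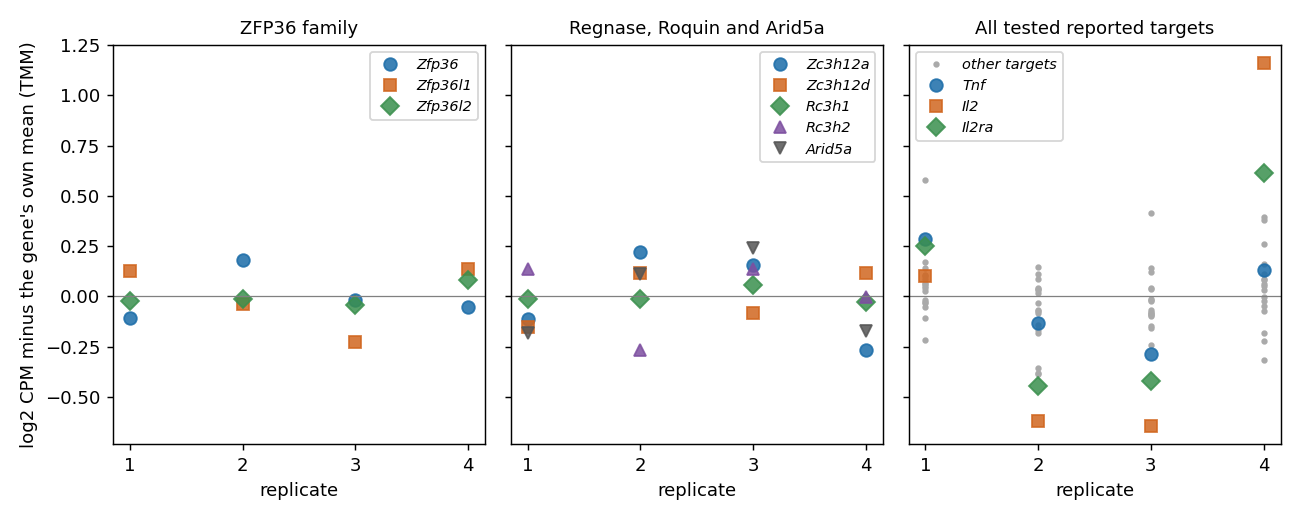
Deviation from the gene's own mean over the libraries of log2 CPM on TMM library sizes in replicates 1 to 4, for the ZFP36 genes, the other tested members, and all 20 tested targets (Tnf, Il2 and Il2ra in colour, the others grey). The members stay within a narrow band, and Il2 and Il2ra, with ranges beyond the trend, are highest in replicates 1 and 4.

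The genes nearest to the 2 widest members over the libraries were found by the distance of their centred log2(TPM + 1) values. For Zc3h12a the nearest of 1574 genes of at least its range was Gramd3 (distance 0.0285), at 700, 844, 901 and 587 TPM. For Arid5a it was Cage1 among 1643 genes (distance 0.0165), at 5.01, 6.09, 7.74 and 4.69 TPM. With 4 libraries and so many candidates, a close neighbour is readily found.

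AU-rich elements occur in the messages of the regulators themselves. The heptamer TATTTAT, the core that ZFP36 proteins bind, was counted on the message strand of 1 annotated coding transcript per gene. For every gene this was the transcript with the longest annotated 3′ UTR, which favours finding a copy. Whether the cells used these 3′ UTRs was not tested. The heptamer was present in the 3′ UTR of 6 of 9 members, each with 2 or more copies: 3 in Zfp36, Zfp36l1, Zfp36l2 and Rc3h2, and 2 in Zc3h12c and Rc3h1. No copy lay in those of Zc3h12a, Zc3h12d or Arid5a. Of 21021 protein coding genes with an annotated 3′ UTR, 27.6% held a copy and 10.4% held 2 or more, and of the 9777 at 1 TPM or more 30.3% held one. The members' 3′ UTRs had a median of 2327 bases against 961 bases over all genes, and a longer stretch holds more copies. Per kilobase there were 3.88 copies in Zfp36, 1.63 in Zfp36l1 and 1.65 in Zfp36l2.

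One 30-base window of the 3′ UTR is shown for each of the 5 expressed members that hold the heptamer, and for the targets Tnf and Il2, to show the isolated copies in the regulators beside the cluster in Tnf; the heptamer is in capitals.
Zfp36: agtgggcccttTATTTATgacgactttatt
Zfp36l1: ttatcaaaacgTATTTATtgccaaactatg
Zfp36l2: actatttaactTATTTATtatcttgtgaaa
Rc3h1: actttactcatTATTTATtgagatgaggag
Rc3h2: tccagctgcttTATTTATctttttcattgg
Tnf: TATTTATTATTTATTTATTATTTATTTATt
Il2: ataaggctctcTATTTATttaaatatttaa
The windows lie at chr7:28376965-28376994, chr12:80108421-80108450, chr17:84184913-84184942, chr1:160970043-160970072, chr2:37374755-37374784, chr17:35199677-35199706 and chr3:37121050-37121079 of mm10, on the plus strand for Rc3h1 and on the minus strand for the others. The Tnf window holds 5 adjoining or overlapping copies, of 8 in its whole 3′ UTR. The windows of Il2 and of the regulators hold 1 each. A match is a description of the sequence and was not tested for binding.

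Matches to motifs of known activation-linked factors were few in the promoters. In the 250 bases before each RefSeq start (GRCm38.p6, whose coordinates are those of mm10), which the table gave for 8 of the 9 members, 5 motifs were searched on both strands: EGR (GCGGGGGCG or GCGTGGGCG), the cyclic AMP response element (TGACGTCA), AP-1 (TGACTCA or TGAGTCA), the CArG box bound by serum response factor, and NF-kB. Zfp36 held an EGR match from -105 to -97 and a CArG box from -58 to -49, counted from the RefSeq start at chromosome 7, 28379228. Among 32851 such windows, 3.06% held an EGR match and 1.47% a CArG box. GENCODE places an exon of a longer Zfp36 transcript over this window, and that exon is part of the merged length used for its TPM. Rc3h1 held an AP-1 match at -133 to -127, which 4.46% of windows hold. No match was present in the windows of the other 6 members, of which Zc3h12c has 2. The counts of these libraries do not bear on which factor was bound.

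Genes of the decay machinery, and of proteins that act beside or control these regulators, were expressed almost in full. Their levels lay below those of the most abundant regulators. Of 66 genes in 6 lists of such effectors and partners, 65 reached 1 TPM against 45.2% of protein coding genes. Their median was 60.2 TPM. None exceeded Zfp36 or Zfp36l1. Of the 65 tested, 0 were called as varying by edgeR (3 at an unadjusted p under 0.05). Over all 11567 tested genes the counts were 94 (0.813%) and 692. At such shares few calls would be found among any 65 genes, so these counts do not set the partners apart.

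All 14 genes on the deadenylase list were at 1 TPM or more, with a median of 55.6 TPM. The list holds enzymes that shorten poly(A) tails and other genes of the same complexes. Cnot6 (145 ± 20.3 TPM), a catalytic subunit of CCR4-NOT, Cnot11 (123 ± 10.3) and Cnot2 (106 ± 5.79) were the highest. Pan2 (26.0 ± 6.53) and Cnot4 (18.7 ± 1.18) were the lowest. All 13 decapping and 5′-to-3′ decay genes passed too, with a median of 44.3 TPM. The helicase gene Ddx6 led at 382 ± 14.9 TPM, followed by Patl1 (111 ± 7.35) and Lsm14a (101 ± 2.09), while the exonuclease gene Xrn1 was at 15.3 ± 1.62 and Dcp1b at 7.33 ± 1.16 TPM. Of 13 genes for the exosome and its cofactors 12 passed, with a median of 28.5 TPM. They ran from Exosc3 (139 ± 10.3), Exosc10 (138 ± 14.3) and Skiv2l (94.6 ± 20.3) down to Exosc7 (7.65 ± 1.50). Exosc6 had 0 counts, and 100% of its exon bases are shared with Aars on the same strand, where this counting assigns no fragment.

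The other AU-rich element binding proteins compete with the ZFP36 family or act beside it, and 6 of 6 passed, with a median of 71.0 TPM. Hnrnpd (129 ± 7.19 TPM), Khsrp (100.1 ± 10.8) and Celf1 (93.4 ± 16.8) were the highest and Tial1 (31.2 ± 8.57) and Tia1 (6.12 ± 1.46) the lowest. Each was below Zfp36, Zfp36l1 and Zfp36l2. Of the partners and controllers of Regnase and Roquin 9 of 9 passed, with a median of 92.9 TPM. Malt1, the protease that cleaves both, was at 272 ± 40.8 TPM, its scaffold gene Bcl10 at 188 ± 11.5 and the helicase gene Upf1, a partner of Regnase-1, at 140 ± 20.7, and N4bp1 (20.3 ± 0.604) and Btrc (6.92 ± 1.4) were the lowest. Genes for the phosphorylation of ZFP36 proteins by MK2 and their capture by 14-3-3 proteins had the highest median, 153 TPM, and 11 of 11 passed. Ywhaz (489 ± 16.0 TPM), Ywhae (408 ± 30.4) and the MK2 gene Mapkapk2 (357 ± 26.4) led, and the lowest were Ywhah (59.9 ± 6.30) and Ywhaq (53.1 ± 3.52).

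**Figure D5:**
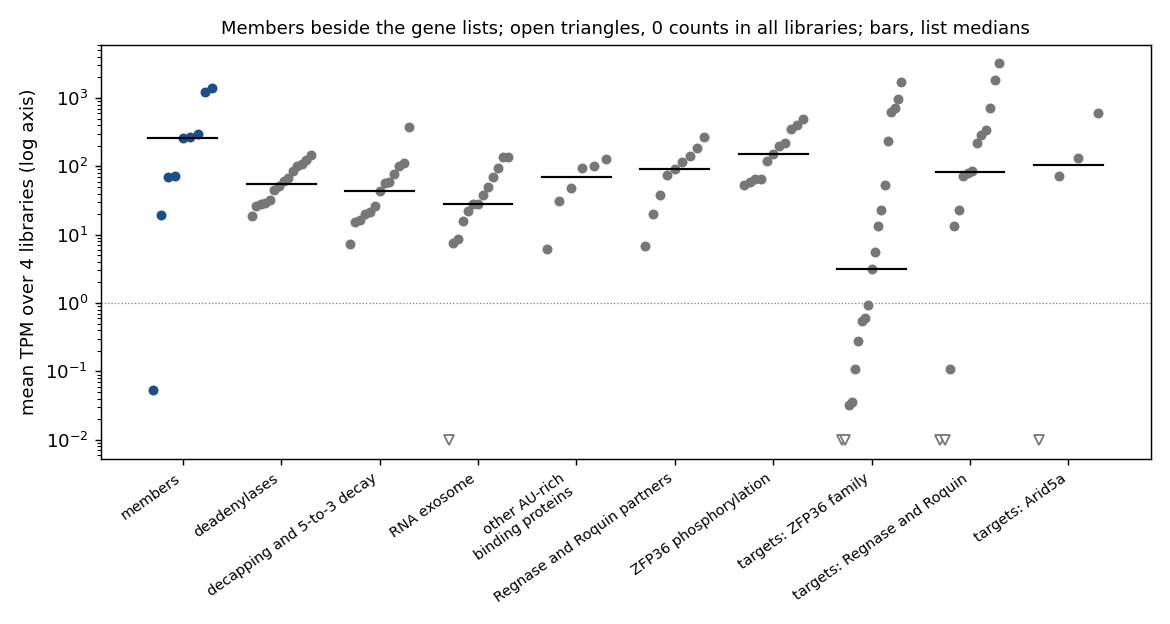
Mean TPM over the 4 libraries (log axis) of the members and of each effector, partner and target list, 1 point per gene, with medians as bars and 1 TPM as a dotted line; open triangles at the bottom mark genes with 0 counts. The 6 effector and partner lists lie between 6.12 and 489 TPM apart from Exosc6, and the targets spread from 0 to 3204 TPM.

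Reported targets, by contrast, ranged from the top of the transcriptome to 0 counts. Of 19 targets of ZFP36 proteins 10 reached 1 TPM, with a median of 3.20 TPM. Myc (1691 ± 68.4 TPM), Pim1 (963 ± 47.5) and Tnf (712 ± 111) were the highest, whereas Il6 and Cxcl1 had 0 counts. The heptamer was present in 18 of these 19 genes, many of which became known as targets through it. Of 14 targets of Regnase and Roquin 11 passed, with a median of 81.4 TPM, led by Nfkbid (3204 ± 304), Irf4 (1856 ± 292) and Tnf. Il12b and Il6 had 0 counts. Of 4 targets of Arid5a 3 passed, from Stat3 (599 ± 37.2 TPM) to Il6 at 0.

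Il2 and Il2ra, 2 of the 20 tested targets, were the ones called as varying between the libraries. Over all 11567 tested genes 94 (0.813%) were called. The target lists were written with earlier results of these data known, so this count is not an independent result about targets. Il2, which encodes the T cell growth factor, was at 21.9, 12.9, 14.2 and 43.5 TPM (edgeR deviance, Benjamini-Hochberg adjusted p = 7.33e-05, n = 4). Il2ra, the gene of its high-affinity receptor chain, was at 95.8, 57.4, 65.6 and 118 TPM (adjusted p = 0.00553 in the same edgeR fit). Both were highest in replicate 4, then replicate 1. Tnf was at 859, 623, 630 and 736 TPM and was not called (edgeR, Benjamini-Hochberg adjusted p = 1.00). Whether the differences in the regulators bear on those of the targets was not tested.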

How the data were processed

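The authors assigned fragments of 4 Th17 libraries to genes using featureCounts (1.4.6-p4, both ends mapped, strand option 2) and exons of GENCODE M13, per the file headers. The deposited counts are raw; the build is mm10 per the labels. No option for fragments with several matches or several genes is recorded in the headers. The assay is labelled total RNA, while the linked library protocol is named for poly(A)+ RNA. TPM was computed from counts and the deposited merged exon length. Library totals ran from 25847970 to 40652146 fragments, and the floor of 3 counts equals 0.0738 to 0.116 CPM, covering counting error only. Between-library variation was tested with edgeR 4.0.16 in R 4.3.3 (genes kept by filterByExpr, TMM, trended dispersion, deviance against chi-square, Benjamini-Hochberg over all genes). Gene contrasts used exact sign-flip tests on log2(TPM + 1). DESeq2 1.42.0 gave alternative size factors. The edgeR step was tested on simulated data. No libraries were identical. Transcript lengths, 3′ UTRs and zinc finger stretches came from GENCODE M21, promoters from RefSeq. The members were chosen by name and not by their values, and the lists were written by pathway. Both were set with earlier results of these data known. Named genes were all members and 2 paralogs, the 3 highest and 2 lowest of each list (highest and lowest in lists under 5), genes of a list that vary beyond the trend, and the nearest gene to each of the 2 widest members. One marker gene is not reported here.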

Additional observations from a re-analysis of the deposited data

Results flagged for a closer look

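Zc3h12d in replicate 1 (64.1 TPM) lay apart from the other libraries (73.3 to 75.0 TPM), with a gap of 0.846 of the whole range. Of 11 genes examined in this way 1 was set apart, and chance sets apart about 1 in 20 groups. On TMM library sizes the values were 77.1, 92.9, 80.8 and 92.9 CPM, and replicate 1 was no longer separate.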

How the results depend on the processing

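The number of genes varying beyond the trend, 94, was 92 with DESeq2 size factors and 85 without the filter on low counts, 58 at an adjusted p under 0.01 and 256 with a common dispersion. It was 35 to 60 without 1 replicate, with fewer samples in the fit. Members called stayed at 0 in all 8 alternatives. The 8 contrasts kept their direction and their side of the threshold in all 72 recomputations, which says little of their stability since no p could pass. List counts at 1 TPM stayed within 1.5 times at thresholds of 0.5 and 5 TPM. With coding transcript lengths, an alternative for single levels chosen after seeing the data, 7 of 9 mean levels moved by more than 1 SD; with 200 bases taken off, Zfp36l2 (252 TPM) and Rc3h1 (62.9 TPM) did. CPM scalings for the order of the libraries were also added after seeing the data. No paired analysis was possible because the series holds 1 group. Depth limits Zc3h12c, Zfp36l3 and Zc3h12b. TPM compares genes only as far as the lengths hold.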
